A study of Mus musculus with 21 samples.

Results

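The interaction of CHIR and TGFb1 was measured in bulk RNA of mouse lung fibroblasts carrying Ly6C and Sca-1, surface proteins encoded by the Ly6c genes and by Ly6a. It is the difference between 2 effects of CHIR, the one seen with TGFb1 present (TGFb1 + CHIR against TGFb1 + DMSO) and the one seen without it (CHIR against DMSO), on the log2 scale for each gene. The members were the 12 libraries of these 4 treatment labels, 3 each, out of 21 in the series. The other 9 libraries (TGFb1 without DMSO, TGFb1 + IL1b and TGFb1 + TNF) lent only their spread to the fit, apart from an alternative that used the TGFb1 libraries. All groups were the same cell type in culture; no dose, duration of treatment, mouse strain, age or number of animals is stated in the labels read here. Nothing says whether the replicates came from separate cultures or animals, so the p-values measure the spread between these libraries, which may be technical.

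TGFb1 is a cytokine that acts through a serine/threonine kinase receptor and SMAD transcription factors and drives fibroblasts to make and contract matrix. CHIR appears in the labels under this abbreviation alone, which commonly stands for an inhibitor of the kinase GSK3. GSK3 marks beta-catenin for breakdown, and when it is inhibited beta-catenin accumulates and acts with TCF and LEF factors on Wnt target genes, as it does when a Wnt ligand binds; GSK3 also phosphorylates many other proteins. DMSO is the solvent in which such compounds are usually dissolved.

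The 12 libraries held from 20405826 to 29276382 counts, with TMM scaling factors from 0.963 to 1.05. Mitochondrially encoded genes took 0.962% to 1.17% of the counts in CHIR, 0.561% to 0.591% in DMSO, 0.349% to 0.467% in TGFb1 + DMSO and 0.479% to 0.567% in TGFb1 + CHIR. The titles number the libraries in a separate block for each treatment and do not say what the numbers mark, so anything that followed these blocks and the treatment cannot be told apart. The 10 pan-fibroblast genes, led by Col1a1, summed to between 31400 and 58400 CPM in every library. CPM stands for library-size scaled counts, with TMM factors for single genes and without them for summed markers. Col1a1 alone averaged 12560 CPM in DMSO and 34041 in TGFb1 + CHIR, so the sum does not describe every member. TGFb1 lowered 6 of the 10 and raised 3, both without CHIR (median -0.768) and with it (median -0.811). The combination lay under all other libraries for 4 of the 10 and above them for 2. Of the 12 immune cell markers, 5 were at 0 in all 12 libraries, Ptprc, Cd3e, Adgre1 and Nkg7 among them, and the sum did not exceed 4.83 CPM. The 11 epithelial markers summed to at most 3.28 CPM, with Krt18 at 0. The 10 endothelial markers, led by Kdr, summed to 22.8 to 25.2 CPM in TGFb1 + CHIR and 6.32 to 16.2 CPM in the other groups, with Cldn5 at 0 throughout. The 7 mesothelial markers, led by Wt1, summed to 13.9 to 17.4 CPM in DMSO, 8.62 to 9.91 in CHIR, 22.2 to 26.7 in TGFb1 + DMSO and 16 to 17.3 in TGFb1 + CHIR, with Msln and Muc16 at 0 throughout. For the 10 markers of mural and smooth muscle cells the sum, with Pdgfrb highest (a gene that fibroblasts have too), was 1050 to 1120, 1260 to 1300, 1110 to 1210 and 879 to 897 CPM in the same order, with Higd1b at 0. The part of the endothelial, mesothelial and mural markers in the results was not tested. In bulk RNA, fewer cells of a type and less RNA per cell cannot be told apart, and this holds for every result below.

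Of 16197 genes tested, 6681 (41.2%) had an interaction with an adjusted p under 0.05 in edgeR's quasi-likelihood test, and are called below. An interaction is higher where the combination lay above the product of the 2 single-agent fold changes, and lower where it lay under it. It was higher for 3397 genes (21%) and lower for 3284 (20.3%). It was at least 2-fold for 1888 genes (11.7%), 1043 higher (6.44%) and 845 lower (5.22%), and at least 4-fold higher for 399 (2.46%) and lower for 331 (2.04%). The absolute interaction had a median of 0.395 over all genes tested, and the signed median was 0.0322.

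The effect of CHIR therefore has to be given separately with and without TGFb1 for many genes. Across all genes tested the effects of CHIR in the 2 settings, which share no library, had a Pearson r of 0.166 and a Spearman rho of 0.165, given as a description across genes that are not independent replicates. CHIR was called in both settings for 4144 genes, with the same sign for 2630 and the opposite sign for 1514. All 1514 also had a called interaction, which 2 called effects of opposite sign nearly fix in advance. These 1514 make up 9.35% of the genes tested. Among the called interactions with the same sign of CHIR effect, that effect was larger with TGFb1 for 505 genes and smaller for 618. CHIR was called only without TGFb1 for 1988 genes with an interaction, only with TGFb1 for 1838 and in neither setting for 218.

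**Figure D1:**
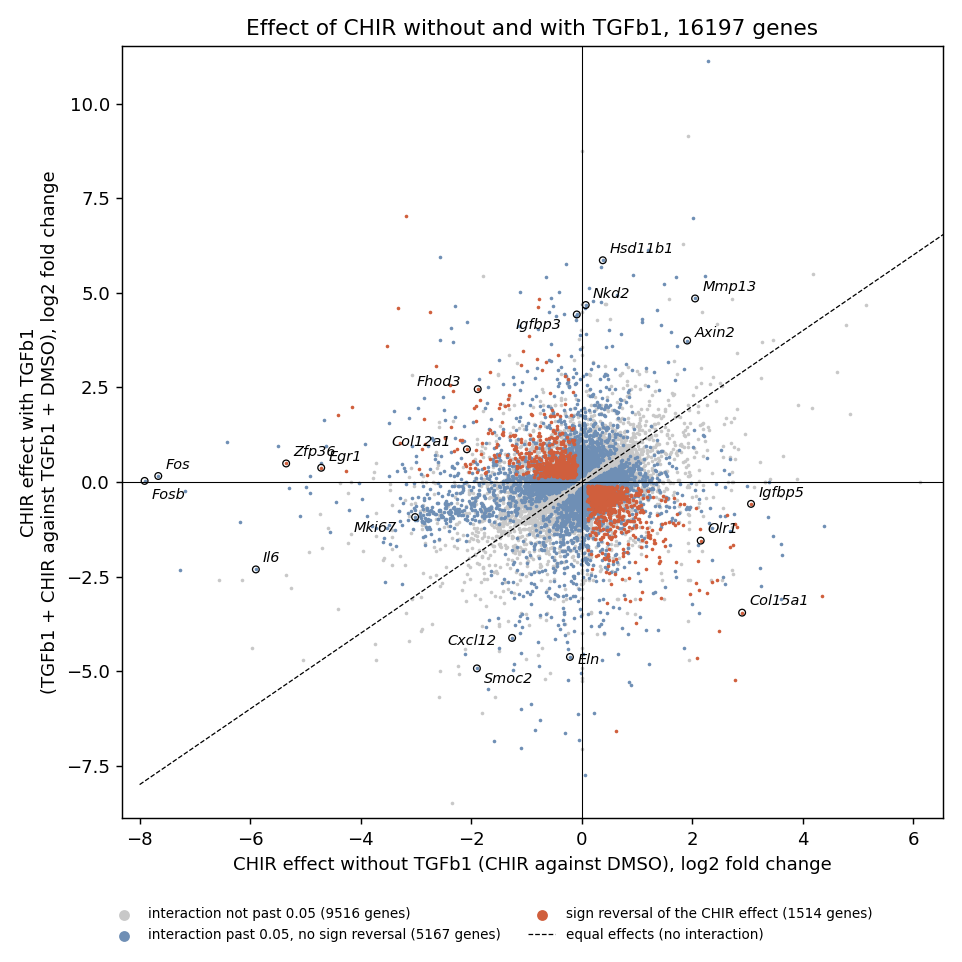
Each point is a gene, with the log2 fold change of CHIR against DMSO on the x axis and of TGFb1 + CHIR against TGFb1 + DMSO on the y axis; the dashed line marks equal effects. The points form no band along that line (r = 0.166), 1514 genes in the upper left and lower right quadrants reversed their sign, and the most negative x values belong to immediate early genes such as Fos and Fosb, which lie near 0 on the y axis.

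Each gene was also placed by what the single agents did against DMSO. Both agents were called with the same sign for 2817 genes. Among these, 166 (1.02%) were synergies, with the combination further from DMSO than the product of the single fold changes, 61 of them higher (0.377%) and 105 lower (0.648%). Antagonism, where the combination fell short of that product, covered 1777 genes (11%), 860 with the combination above a product of decreases (5.31%) and 917 with it under a product of increases (5.66%). The remaining 874 had no called interaction. In 1449 of the 1777 antagonisms the combination lay closer to DMSO than the larger single-agent change did, and in 197 it lay past DMSO on the other side.

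The DMSO libraries enter both single-agent effects and, with the opposite sign, the interaction, so that error in them alone moves genes toward antagonism. Where both single agents also changed a gene at least 2-fold in the same direction (438 genes), 21 were synergies, 248 antagonisms and 169 not called. The agents were called with opposite signs for 2658 genes, of which 1677 had an interaction; the combination was shifted in the direction of TGFb1 alone for 1419 of these and in the direction of CHIR alone for 258. Finally, 624 genes (3.85%) had an interaction although neither single agent was called, 346 higher (2.14%) and 278 lower (1.72%).

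**Figure D2:**
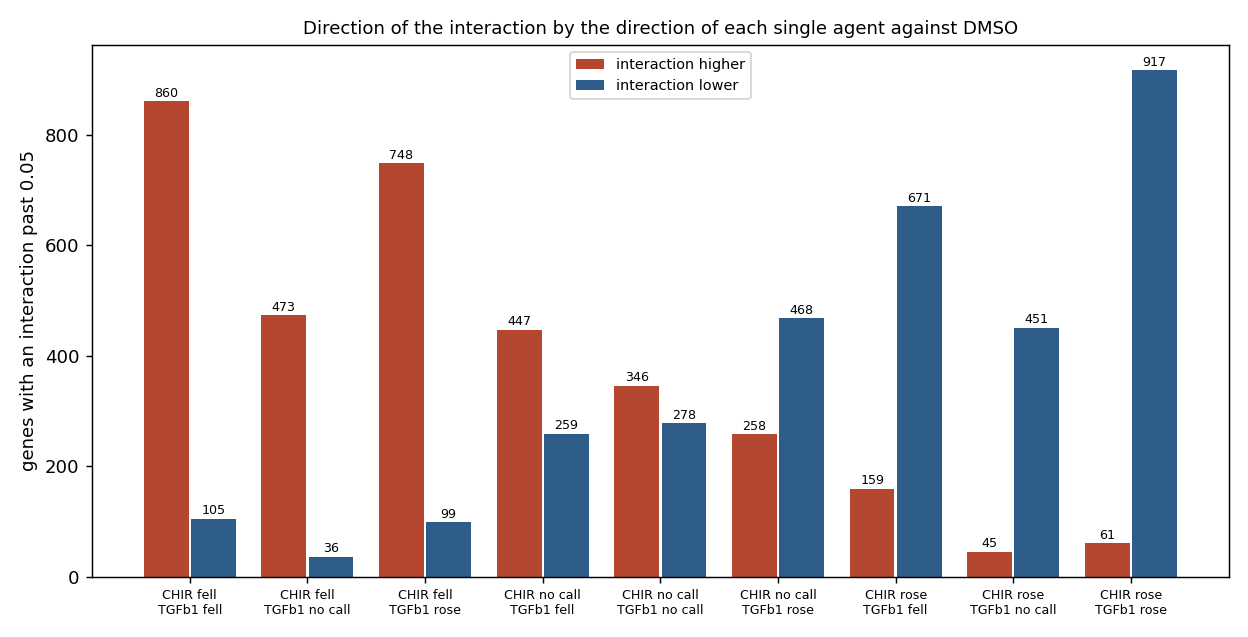
Bars count the genes with a called interaction by what CHIR alone and TGFb1 alone did against DMSO, split into interactions higher (red) and lower (blue) than the product of the single fold changes. The tallest pairs are those in which both agents moved a gene the same way and the interaction ran the other way (860 and 917 genes), while the same-way bars hold 61 and 105 genes.

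The scale of the expectation set the sign for some genes. Of the 6681 called genes, 6411 had an interaction of the same sign when it was computed as a difference of mean CPM, where an additive expectation replaces a product, and 270 had the other sign. Both kinds of sign reversal and the 61 higher synergies had the same sign on both scales for every gene. The definitions of these classes fix that outcome in advance, so it is no test of the scale. Of the 105 lower synergies, 60 had the opposite sign in CPM, as did 18 of the 917 lower antagonisms, and the rest were outside both classes.

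Among the Wnt feedback genes, Nkd2 was 1 of the 12 highest interactions that met the rule for naming. Nkd2, a Dishevelled-binding inhibitor of Wnt signalling (ENSMUSG00000021567, chromosome 13, 73818534 to 73847631, GRCm38), stood at 7.82, 9.84 and 8.55 CPM in the DMSO libraries and 8.98, 8.4 and 10.4 in CHIR, so these groups overlapped. It was at 19.2, 21 and 19.8 CPM in TGFb1 + DMSO and 478, 494 and 565 in TGFb1 + CHIR, far above the 21 CPM that the product of the single effects gives. Its interaction was 4.61 ± 0.15 (log2 ± SE, n = 3 per group, adjusted p = 5.62e-20), with a CHIR effect of 0.07 without TGFb1 and 4.68 with it. The related Nkd1 went from 52.7, 49.9 and 47.8 CPM in DMSO to 43.4, 39.4 and 43.9 in CHIR, and from 24.4, 23 and 24.6 in TGFb1 + DMSO to 152, 149 and 170.2 in TGFb1 + CHIR. CHIR thus lowered Nkd1 in the absence of TGFb1 (-0.25) and raised it in its presence (2.71), and no library of any group overlapped one of the combination.

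Axin2, a scaffold of the complex that degrades beta-catenin and a standard readout of the pathway, rose with CHIR in both settings. It was at 4.69, 4.13 and 6.16 CPM in DMSO, 18.9, 17.9 and 19 in CHIR, 5.67, 5.04 and 5.19 in TGFb1 + DMSO and 69.7, 71.6 and 71 in TGFb1 + CHIR. TGFb1 alone left it within the DMSO range, and the interaction was 1.83 ± 0.17 (adjusted p = 7.02e-13). Tcf7, a DNA-binding partner of beta-catenin, was a synergy, from 2.82, 2.15 and 3.04 CPM in DMSO to 44.5, 45.6 and 47.6 in the combination (1.57 ± 0.21). Its relative Lef1 rose with each agent and with both together, and its interaction was not called (-0.40 ± 0.20, adjusted p = 0.11). With the other TGFb1 control, without DMSO, the interaction of Lef1 was -0.62 and called (edgeR, adjusted p = 0.0105). Notum, an enzyme that inactivates Wnt ligands, had an interaction of 3.19 ± 0.47, and Apcdd1, another inhibitor of the pathway, 3.81 ± 0.13; TGFb1 lowered both without CHIR and raised both with it.

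Not every Wnt gene followed. Lgr6, a receptor for R-spondins, was at 25.5, 25.6 and 25.2 CPM in TGFb1 + DMSO and 3.74, 3.56 and 4.84 in TGFb1 + CHIR, although CHIR alone had raised it from 0.408, 0.873 and 0.446 to 3.46, 1.83 and 1.95. Its interaction was -4.72 ± 0.30, the lowest of its list. Frzb, a secreted Wnt antagonist, stood at 9.83, 12.4 and 10.9 CPM in DMSO, 21.7, 23.5 and 23.2 in CHIR, 5.36, 5.86 and 6.15 in TGFb1 + DMSO and 0.667, 0.988 and 0.356 in the combination (-4.14 ± 0.28). Over the 25 Wnt and beta-catenin targets tested, 17 interactions were higher, 7 lower and 1 was not called, with a median of 0.603. The median CHIR effect of the list was 0.255 without TGFb1 and 1.2 with it, and in 13 of the 25 every library of the combination lay above all other libraries. Among 13 Wnt ligand genes 4 interactions were higher and 2 lower, and Wnt2 went from 3.65 to 4.5 CPM in TGFb1 + DMSO to 70.3 to 76.9 in the combination (2.70 ± 0.35).

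Several further genes rose with CHIR only when TGFb1 was present, and many of these had been lowered by TGFb1. Igfbp3, which binds insulin-like growth factors (ENSMUSG00000020427, chromosome 11, 7206086 to 7213923), was at 465, 429.7 and 439 CPM in DMSO, 412, 428 and 413 in CHIR, 207, 222 and 231 in TGFb1 + DMSO and 4599, 4588 and 5033 in TGFb1 + CHIR. TGFb1 lowered it without CHIR (-1.01) and raised it with CHIR (3.50), an interaction of 4.52 ± 0.065 (adjusted p = 6.58e-45). Hsd11b1, which regenerates active glucocorticoid, went from 0.585 to 2.02 CPM in TGFb1 + DMSO to 59.2 to 80.1 in the combination (5.48 ± 0.48), and Osr2, a zinc finger transcription factor, from 1.63 to 2.42 to 52 to 64.3 (5.60 ± 0.17). The combination overlapped DMSO for Osr2 (48.9 to 57.9 CPM), whereas Rerg, a small GTPase of the Ras family, reached 15.5 to 19.7 CPM against 57 to 60.1 in DMSO (4.75 ± 0.27).

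**Figure D3:**
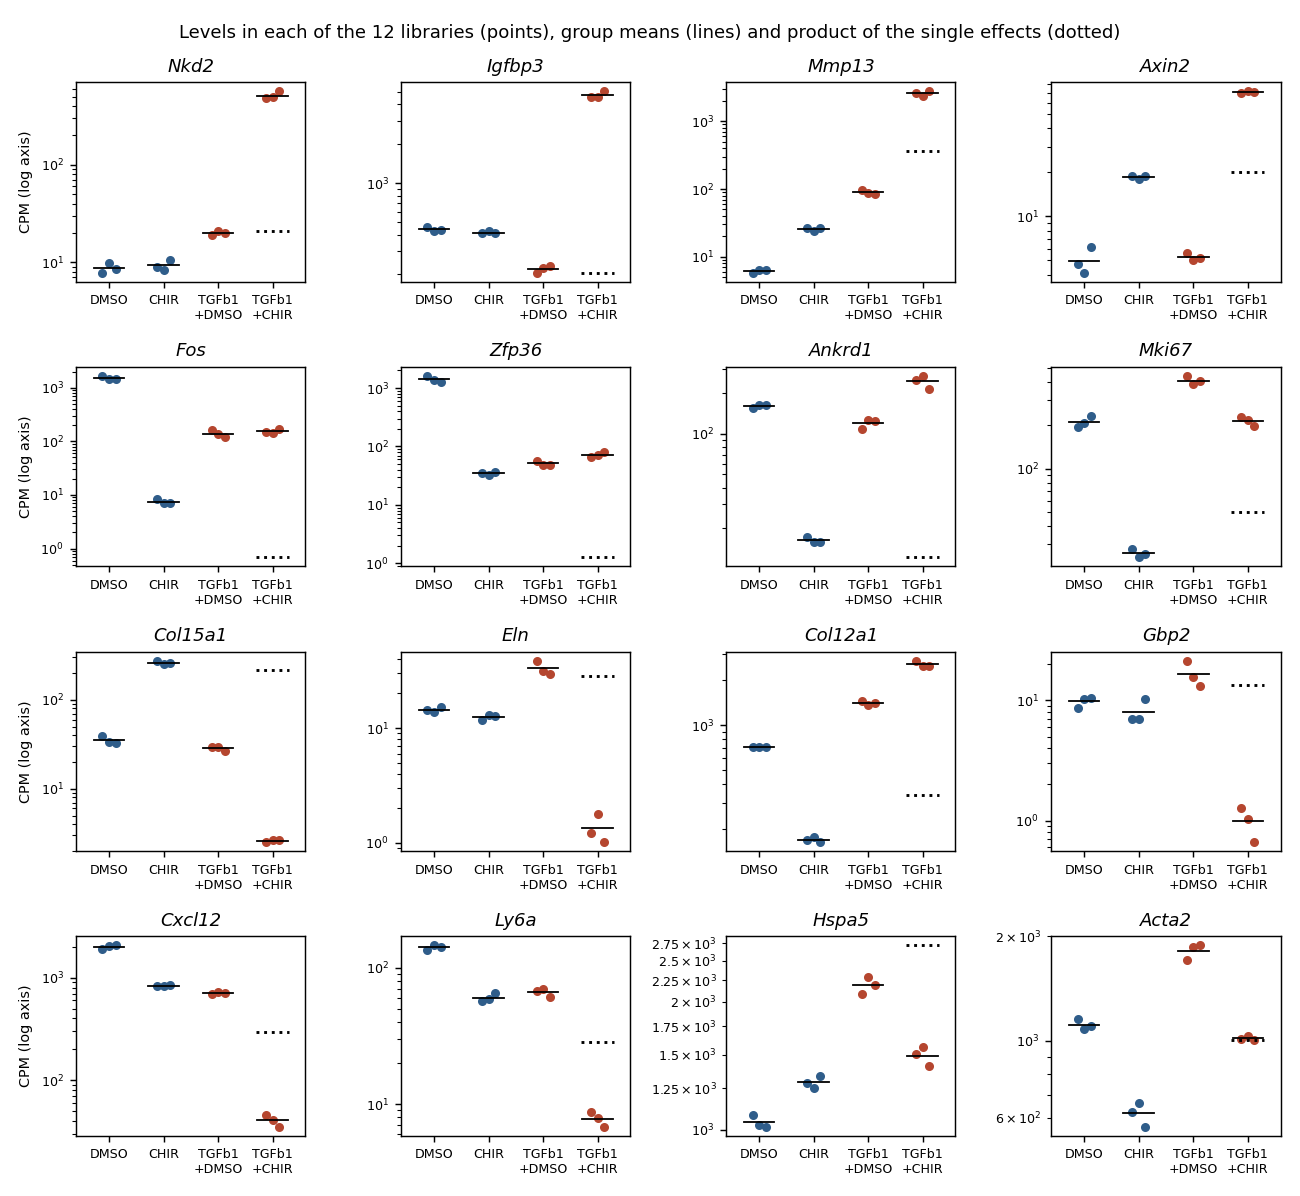
Levels of 16 genes in CPM on log axes, 1 point per library, with group means as lines and, for the combination, the product of the single-agent effects as a dotted line. Nkd2, Igfbp3 and Mmp13 lie above the dotted line in all 3 TGFb1 + CHIR libraries, Col15a1, Eln, Gbp2 and Cxcl12 lie under it, and Acta2 lies on it.

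The highest interactions that met the rule for naming, those of Fosb, Fos and Zfp36, belonged to immediate early genes. Osr2 and Hsd11b1, given above, came next, ahead of the immediate early gene Egr1. Immediate early genes encode transcription factors and RNA-decay proteins that respond within a short time to growth factors, serum and handling. Fos, a subunit of AP-1 (ENSMUSG00000021250, chromosome 12, 85473890 to 85477273), was at 1644, 1475 and 1431 CPM in DMSO and 8.42, 6.96 and 6.96 in CHIR. With TGFb1 it was at 166, 135 and 118 CPM in TGFb1 + DMSO and 150.2, 144 and 173 in TGFb1 + CHIR, and these 2 groups overlapped. The CHIR effect was -7.66 without TGFb1 and 0.16, not called, with it, so the interaction of 7.82 ± 0.27 (adjusted p = 1.30e-12) came with a loss of the CHIR effect rather than a high level in the combination. Fosb showed the same arrangement (7.94 ± 0.30): 459.6 to 657 CPM in DMSO, 2.09 to 2.35 in CHIR, 18.2 to 26.7 in TGFb1 + DMSO and 21.2 to 24.1 in TGFb1 + CHIR.

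Zfp36, which binds and destabilises cytokine mRNAs, fell with either agent, from 1291 to 1603 CPM in DMSO to 32.8 to 36.9 in CHIR and 48.9 to 56.7 in TGFb1 + DMSO. In the combination it stood at 66.4 to 80.6 CPM, above both single agents and far under DMSO (5.84 ± 0.18). Egr1, a zinc finger transcription factor, was at 106 to 109 CPM in CHIR and 1008 to 1213 in TGFb1 + CHIR, against 2677 to 2971 in DMSO and 774 to 969 in TGFb1 + DMSO (5.09 ± 0.15). Of the 34 immediate early genes tested, 26 interactions were higher, 3 lower and 5 not called, with a median of 1.29. CHIR had a median effect of -1.42 on them without TGFb1 and -0.0213 with it. In 21 of the 34 both agents lowered the gene and the combination lay above the product, and in 16 the effect of TGFb1 changed sign.

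Targets of SRF and YAP, transcription regulators that respond to actin and cell tension, moved in the same direction for the most part. Ankrd1, a nuclear ankyrin-repeat protein, was at 155, 164 and 165 CPM in DMSO, 17.3, 15.9 and 15.9 in CHIR, 109, 126 and 123 in TGFb1 + DMSO and 252, 267 and 216 in TGFb1 + CHIR. CHIR lowered it without TGFb1 and raised it with TGFb1, the combination lay above every other library, and the interaction was 4.33 ± 0.087 (adjusted p = 2.91e-35). Ccn1, a matricellular protein, had an interaction of 3.91 ± 0.068, with a CHIR effect of -4.45 without TGFb1 and -0.54 with it. Ccn2, its relative and a classical TGFb target, went the other way: 84.5 to 101 CPM in DMSO, 69.2 to 76 in CHIR, 1038 to 1183 in TGFb1 + DMSO and 298 to 327 in the combination (-1.48 ± 0.091). In the list of 21 there were 16 higher interactions and 5 lower ones, with a median of 0.762; without replicate 3 of TGFb1 + CHIR the lower ones numbered 3.

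Cell cycle genes had the highest median interaction of any list. Mki67, a marker of dividing cells, was at 193, 207 and 232 CPM in DMSO, 28, 24.4 and 25.8 in CHIR, 438, 384 and 402 in TGFb1 + DMSO and 227, 219 and 197 in TGFb1 + CHIR. CHIR lowered it in both settings, by much less with TGFb1 (-0.93) than without it (-3.01), and the combination overlapped the DMSO libraries. Plk1, a mitotic kinase, had an interaction of 2.35 ± 0.14; it stood at 19.5 to 25.1 CPM in DMSO, 2.24 to 3.31 in CHIR, 49.9 to 57.7 in TGFb1 + DMSO and 32.7 to 34.6 in the combination. Mybl2, a transcription factor of dividing cells, had 3.46 ± 0.28, and Rrm2, the regulated subunit of ribonucleotide reductase, 2.64 ± 0.13.

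Of 43 cell cycle genes, 37 interactions were higher, none lower and 6 not called, with a median of 1.64. CHIR lowered all 43 without TGFb1 and 42 with it, and TGFb1 raised 42 without CHIR and 43 with it, so the list holds no sign reversal. The median CHIR effect was -2.47 without TGFb1 and -0.741 with it. On the CPM scale 18 of the 37 kept the sign of their log2 interaction. Mki67 (211, 26.1, 408 and 214 CPM on average in DMSO, CHIR, TGFb1 + DMSO and TGFb1 + CHIR) was not among them: CHIR removed a similar number of CPM in both settings, from a higher start with TGFb1.

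The promoter of Plk1 is shown because it holds the letters of the cell cycle homology region, an element by which many G2 and M phase genes are timed. Members were taken in order of interaction until a window held these letters. Mybl2 and Rrm2, with larger interactions, were passed over. The window runs from 250 bases before to 50 bases after the RefSeq start site (chr7:122159185-122159484, plus strand, GRCm38.p6), and capitals mark the match to TTTGAA, 30 bases after the start. 
Plk1: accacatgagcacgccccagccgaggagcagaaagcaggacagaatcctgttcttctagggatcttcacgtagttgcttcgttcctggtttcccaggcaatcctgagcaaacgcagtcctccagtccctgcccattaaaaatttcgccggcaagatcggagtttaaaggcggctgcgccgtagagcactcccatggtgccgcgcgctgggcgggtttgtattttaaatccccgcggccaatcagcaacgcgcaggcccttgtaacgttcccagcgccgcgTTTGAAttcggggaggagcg
The letters TTTGAA, searched on both strands, were in 15 of the 35 cell cycle genes with a RefSeq window (42.9%) and in 1546 of 10822 genes tested with one (14.3%). A match is a description of these letters and not a measured site. Searched the same way, CTTTGAT (TCF/LEF) was in 1 of 14 Wnt targets (7.14%) and in 3.08% of all. TGANTCA (AP-1) was in 2 of 28 immediate early genes (7.14%), 8 of 26 interferon-stimulated genes (30.8%) and 6.5% of all. CAGAC (SMAD) was in 11 of 16 TGFb and SMAD targets (68.8%) and 52.9% of all. No share was tested.

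Interferon-stimulated genes had the lowest median interaction of any list. Gbp2, a guanylate-binding GTPase of antimicrobial defence (ENSMUSG00000028270, chromosome 3, 142620602 to 142638008), was at 8.64, 10.4 and 10.5 CPM in DMSO, 7, 6.96 and 10.2 in CHIR, 21.4, 15.6 and 13.1 in TGFb1 + DMSO and 1.26, 1.04 and 0.662 in TGFb1 + CHIR. DMSO and CHIR overlapped, TGFb1 + DMSO lay above both, and the combination lay under all other libraries (-3.73 ± 0.37, adjusted p = 5.97e-08). Usp18, which restrains interferon signalling, rose with TGFb1 alone (2.61) and fell with TGFb1 when CHIR was present (-1.96), an interaction of -4.57 ± 0.75. Irf7, a transcription factor of the interferon response, was at 1.43, 4.83 and 3.24 CPM in DMSO, 0.857, 1.67 and 1.56 in CHIR, 11.5, 8.79 and 9.29 in TGFb1 + DMSO and 0.185, 0.395 and 0.509 in the combination (-3.58 ± 0.81). The first DMSO library was the lowest of its group for Irf7, Usp18 and Ifi203.

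Of the 34 interferon-stimulated genes tested, 26 interactions were lower, 1 was higher and 7 were not called, with a median of -2.03. When each of the 12 libraries was left out in turn, between 26 and 28 members were lower. The median CHIR effect was -0.544 without TGFb1 and -2.97 with it. TGFb1 raised 24 members without CHIR and lowered 20 with it, 11 of them as called sign reversals, and in 21 members the combination lay under all other libraries. Genes of antigen presentation moved alike, with 11 of 14 lower and 2 higher (median -0.98): Tap1, which carries peptides into the endoplasmic reticulum, was at 6.36 to 9.27 CPM in DMSO, 5.29 to 9.16 in CHIR, 6.88 to 9.44 in TGFb1 + DMSO and 0.458 to 1.78 in the combination (-2.78 ± 0.42). Neither agent alone was called for Tap1. Summed immune cell markers did not exceed 4.83 CPM in any group, as given above.

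The Gbp2 promoter carries the letters of an interferon-stimulated response element, searched as TTTCNNTTTC. This search was chosen after the interaction of these genes was known. The window is chr3:142620413-142620712 on the plus strand (GRCm38.p6), and capitals mark the match, 59 bases before the RefSeq start site. That site lies 61 bases downstream of the gene start given above, so the match is not upstream of the gene start. 
Gbp2: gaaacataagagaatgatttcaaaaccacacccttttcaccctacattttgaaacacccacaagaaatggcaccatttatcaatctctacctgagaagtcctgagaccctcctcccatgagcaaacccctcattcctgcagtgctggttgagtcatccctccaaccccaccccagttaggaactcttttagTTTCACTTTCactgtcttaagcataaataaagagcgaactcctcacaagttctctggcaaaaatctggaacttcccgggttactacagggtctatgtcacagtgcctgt
The letters occurred on either strand in 16 of 26 interferon-stimulated genes with a window (61.5%) and in 402 of all 10822 (3.71%). Many of these genes are known for this element, so the share describes the list and says nothing of the interaction.

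Targets of TGFb and SMAD were mostly lower than the product of the single effects. Ltbp2, which belongs to the latent TGFb binding protein family, was at 549.6, 525 and 527 CPM in DMSO, 789.7, 752 and 758 in CHIR, 654, 639.8 and 636 in TGFb1 + DMSO and 96.6, 105 and 93.6 in TGFb1 + CHIR. Each agent raised it and both together took it under DMSO in all 3 libraries, an interaction of -3.23 ± 0.062 (adjusted p = 4.98e-41). Its relative Ltbp3 likewise rose with each agent and stood under DMSO in all 3 combined libraries (-1.46 ± 0.056). Snai1, a transcription factor of mesenchymal cells, rose with CHIR alone (0.73) and fell when CHIR was added to TGFb1 (-0.70). Nox4, an oxidase induced by TGFb1, was at 38.7 to 44.9 CPM in TGFb1 + DMSO and 7.54 to 10 in the combination (-1.66 ± 0.17).

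Over 25 TGFb and SMAD targets, 18 interactions were lower, 5 higher and 2 not called (median -0.585). In 11 of them both single agents raised the gene and the combination fell short, and in 9 the effect of CHIR turned from a rise to a fall. The endoplasmic reticulum chaperones and other genes of the secretory pathway behaved alike. Hspa5, the main chaperone of the endoplasmic reticulum, stood at 1081, 1025 and 1016 CPM in DMSO, 1287, 1254 and 1334 in CHIR, 2084, 2287 and 2189 in TGFb1 + DMSO and 1503, 1567 and 1413 in TGFb1 + CHIR. Both agents raised it, and the combination lay between CHIR and TGFb1 + DMSO with no overlap (-0.86 ± 0.058). Of the 21 genes in that list 19 were lower, none higher and 2 not called (median -0.563), with 14 antagonisms and 10 reversals of the CHIR effect from a rise to a fall.

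Genes of amino acid synthesis and the ATF4 response, another arm of the stress responses of the cell, had the other sign. Of 23 tested, 16 interactions were higher, 2 lower and 5 not called (median 0.481). Cth, an enzyme of cysteine synthesis, was at 16.3 to 17.8 CPM in DMSO, 5.02 to 5.7 in CHIR, 68.8 to 85.7 in TGFb1 + DMSO and 84 to 93.6 in the combination (1.82 ± 0.15). Chac1, a glutathione-degrading enzyme, fell with CHIR alone and rose when it was added to TGFb1 (0.85 ± 0.16). In 17 of the 23 the combination lay above all other libraries.

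Matrix genes split between both directions. Col15a1, a collagen of basement membrane zones (ENSMUSG00000028339, chromosome 4, 47208161 to 47313167), had the lowest interaction of all genes that met the rule for naming. It was at 39, 33.8 and 32.3 CPM in DMSO, 274, 252 and 261 in CHIR, 29.7, 29.1 and 26.9 in TGFb1 + DMSO and 2.52, 2.67 and 2.65 in TGFb1 + CHIR. CHIR raised it without TGFb1 (2.90) and lowered it with TGFb1 (-3.45), with CHIR above and the combination under all other libraries. The interaction was -6.36 ± 0.13 (adjusted p = 1.08e-33), and the combination lay at 2.61 CPM on average where the product of the single effects gives 213.

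Eln, the elastin precursor, was raised by TGFb1 alone and lowered by TGFb1 with CHIR: 14.4, 13.8 and 15.2 CPM in DMSO, 11.7, 12.9 and 12.8 in CHIR, 38.5, 31.3 and 29.4 in TGFb1 + DMSO and 1.22, 1.78 and 1.02 in the combination (-4.41 ± 0.21). Col8a2, a short-chain collagen, rose with each agent, to 0.925 to 2.09 CPM in CHIR and 35.7 to 44.6 in TGFb1 + DMSO from 0.369 to 0.77 in DMSO, and was at 12.2 to 13.2 in the combination (-3.20 ± 0.31). In contrast Col12a1, a collagen on the surface of fibrils, was at 706, 715 and 716 CPM in DMSO, 168, 176 and 162 in CHIR, 1463, 1364 and 1419 in TGFb1 + DMSO and 2714, 2499.6 and 2519.5 in TGFb1 + CHIR. CHIR lowered it without TGFb1 and raised it with TGFb1, and no groups overlapped (2.94 ± 0.056). Fbn2, a fibrillin of elastic microfibrils, rose from 35.8 to 36.6 CPM in TGFb1 + DMSO to 229 to 263 in the combination (3.10 ± 0.14), while CHIR alone lowered it (-0.31).

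Of 32 fibrillar collagen and matrix genes, 13 interactions were higher, 15 lower and 4 not called (median -0.145), and the effect of CHIR changed sign in 15. Col1a1, the most abundant, was at 12399 to 12665 CPM in DMSO and 32154 to 36422 in the combination, and its interaction was small (0.13 ± 0.052, adjusted p = 0.0358) and was not called under 14 of the 22 alternatives. Postn, a matricellular protein of fibrosis, had -0.23 ± 0.049. In the list of 27 collagen processing and crosslinking genes 6 were higher and 13 lower; Pcolce2, an enhancer of procollagen cleavage, went from 30.1 to 30.8 CPM in TGFb1 + DMSO to 2.04 to 2.96 in the combination (-3.45 ± 0.14), and Loxl2, a collagen crosslinking oxidase, had -0.84 ± 0.053.

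Contractile genes, the signature of the myofibroblast, had no common direction, with 11 of 27 higher and 10 lower (median 0.047). Acta2, the smooth muscle actin, was at 1155, 1085 and 1102 CPM in DMSO, 624, 663 and 565 in CHIR, 1705, 1869.6 and 1883 in TGFb1 + DMSO and 1013, 1035 and 1008 in TGFb1 + CHIR. CHIR lowered it by nearly the same log2 amount without TGFb1 (-0.85) and with it (-0.84), and the interaction of 0.01 ± 0.069 was not called (adjusted p = 0.902). With the other TGFb1 control, without DMSO, the interaction of Acta2 was -0.38 and called. Mylk, the myosin light chain kinase, had an interaction of 2.25 ± 0.17: TGFb1 lowered it from 134 to 135 to 11.1 to 13.1 CPM, and adding CHIR brought it to 46.5 to 64.1.

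Synergy in the upward direction was rare and included matrix proteases. Mmp13, the collagenase that cleaves fibrillar collagen (ENSMUSG00000050578, chromosome 9, 7272514 to 7283331), was at 5.85, 6.38 and 6.49 CPM in DMSO, 26.8, 24.1 and 26.7 in CHIR, 96.1, 87 and 84.1 in TGFb1 + DMSO and 2614, 2347 and 2749 in TGFb1 + CHIR. The 4 groups did not overlap, and the combination exceeded the product of the single effects, 369.5 CPM, in all 3 libraries. The interaction was 2.80 ± 0.21 (adjusted p = 2.21e-08), the largest among the higher synergies that met the rule for naming.

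The Mmp13 promoter is shown for its match to TGANTCA, the letters of an AP-1 element, 35 bases before the start and in capitals (chr9:7272264-7272563, plus strand, GRCm38.p6). 
Mmp13: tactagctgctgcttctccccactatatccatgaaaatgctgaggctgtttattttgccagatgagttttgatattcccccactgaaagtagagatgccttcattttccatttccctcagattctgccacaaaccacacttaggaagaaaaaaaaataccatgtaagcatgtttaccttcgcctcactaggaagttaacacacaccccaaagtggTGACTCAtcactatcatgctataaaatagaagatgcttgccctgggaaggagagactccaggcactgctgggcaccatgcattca
Of all 10822 promoters searched on both strands, 703 (6.5%) hold these letters. In the combination the AP-1 subunits Fos and Fosb were lower than in DMSO, above CHIR and overlapping TGFb1 + DMSO, with values given above. The part of AP-1 in the interaction of Mmp13 was not tested.

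Mmp10, a stromelysin, went from 2.42 to 4.32 CPM in DMSO to 3.99 to 5.51 in CHIR, 7.65 to 11.1 in TGFb1 + DMSO and 42.2 to 58.3 in the combination (1.84 ± 0.30). Its DMSO and CHIR libraries overlapped, and CHIR alone was called narrowly (edgeR, adjusted p = 0.0438), so its place among the synergies is borderline. Htra1, a secreted serine protease, was at 441 to 485, 519 to 562, 686 to 781 and 2685 to 2754 CPM in the same order (1.65 ± 0.065), and Rcan1, an inhibitor of calcineurin, had 2.38 ± 0.13. Of 33 protease and inhibitor genes 20 interactions were higher and 6 lower (median 0.63), with 5 higher synergies and no lower one. Mmp9, a gelatinase, was an exception: CHIR raised it without TGFb1 (1.31) and lowered it with TGFb1 (-1.62), an interaction of -2.93 ± 0.17.

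Synergy in the downward direction included genes of the adventitial fibroblast and the sort marker itself. Cxcl12, a chemokine that retains leukocytes and stem cells, was at 1925, 2031 and 2065 CPM in DMSO, 833, 836 and 846 in CHIR, 701, 719 and 702 in TGFb1 + DMSO and 45.2, 41 and 35 in TGFb1 + CHIR. Each agent alone lowered it, and the combination lay under the 295 CPM of the product, with an interaction of -2.86 ± 0.074 (adjusted p = 1.14e-28). Smoc2, a matricellular protein, was at 40.3 to 43.7 CPM in DMSO, 9.96 to 13.2 in CHIR, 10.4 to 13 in TGFb1 + DMSO and 0.153 to 0.494 in the combination (-3.03 ± 0.26). Efemp1, a fibulin, had -2.70 ± 0.088, and Serpina3g, a serine protease inhibitor, -3.49 ± 0.21.

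Ly6a, which encodes Sca-1, was at 136, 146 and 143 CPM in DMSO, 57.6, 59.1 and 65.2 in CHIR, 67.6, 70.5 and 61.6 in TGFb1 + DMSO and 8.71, 7.95 and 6.82 in TGFb1 + CHIR, an interaction of -1.85 ± 0.12 (adjusted p = 1.19e-16). Ly6c1 followed the same order (-2.45 ± 0.22); reads that fit its close copy Ly6c2 equally well may have been left out or split, which no source used here states. Scaled without TMM factors, the 3 genes of the sorted surface proteins together summed to 193 to 208 CPM in DMSO. In the combination they summed to 7.3 to 8.95 CPM, so these libraries hold the markers used to name the cells at a low level. For Cxcl12, Smoc2, Efemp1, Serpina3g, Ly6a and Ly6c1 the difference of CPM means had the opposite sign. That of Serpina3g was 1.225 CPM and not called in limma (adjusted p = 0.655). Of 24 adventitial fibroblast genes 6 interactions were higher and 10 lower (median -0.0658), with 4 lower synergies.

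Sign reversals of the CHIR effect ran in both directions, 654 genes from a fall without TGFb1 to a rise with it (4.04%) and 860 from a rise to a fall (5.31%). Both CHIR effects were at least 2-fold in 44 and 55 of these. Fhod3, a formin that assembles actin, went from a fall to a rise: it was at 5.75, 8.56 and 6.2 CPM in DMSO, 2.09, 1.64 and 1.85 in CHIR, 22.5, 23.5 and 17.2 in TGFb1 + DMSO and 103, 112 and 132 in the combination (4.34 ± 0.22). Mgll, a lipase of monoacylglycerols, and Tnfrsf11b, the decoy receptor osteoprotegerin, had the same order of groups, with CHIR lowest and the combination highest (3.05 ± 0.22 and 2.97 ± 0.17). In Grb14, an adaptor of the insulin receptor, Chrdl1, a BMP antagonist, and Dpep1, a dipeptidase, DMSO was the highest group and TGFb1 + DMSO the lowest, and CHIR raised the gene from that low level (3.83 ± 0.20, 2.93 ± 0.36 and 2.66 ± 0.17). Syt13, a synaptotagmin, and Ankrd29 returned with both agents to the level of DMSO or above (3.92 ± 0.36 and 2.45 ± 0.28).

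Among reversals from a rise to a fall, Olr1, a scavenger receptor for oxidised lipoprotein, was at 8.33, 6.75 and 8.47 CPM in DMSO, 36, 35.8 and 32.5 in CHIR, 90.9, 80.7 and 82.2 in TGFb1 + DMSO and 28.3, 26.5 and 31.9 in the combination (-3.70 ± 0.12). Both agents raised it, and together they left it under the level of CHIR alone in all 3 libraries. Fbxo32, a ubiquitin ligase subunit known from muscle wasting, was at 123 to 133 CPM in DMSO, 307 to 332 in CHIR, 185 to 201 in TGFb1 + DMSO and 56.6 to 67.8 in the combination (-2.94 ± 0.074). Rgs4, a regulator of G protein signalling, and Lama2, a laminin chain, likewise had their highest level in CHIR and their lowest in the combination (-3.02 ± 0.15 and -3.02 ± 0.17). Igfbp5 had the same order, from 450.1 to 514 CPM in CHIR to 20.2 to 29.4 in the combination (-3.64 ± 0.18), opposite to its relative Igfbp3. Ces1g, a carboxylesterase (-3.82 ± 0.34), and Tnn, a tenascin (-3.54 ± 0.60), complete the named reversals beside Col15a1 and Col8a2.

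Read along the other factor, the effect of TGFb1 changed sign with CHIR in 839 genes (5.18%), 432 from a fall to a rise (2.67%) and 407 from a rise to a fall (2.51%), with both effects at least 2-fold in 54 and 32. Junb and Ier2, immediate early genes, were among the first kind, with TGFb1 effects of -1.93 and -2.10 without CHIR and 2.69 and 2.45 with it. Hr, a transcriptional corepressor, was of the second kind: 3.54, 3.66 and 2.59 CPM in DMSO, 6.85, 6.39 and 6.28 in CHIR, 21.4, 19.6 and 18.8 in TGFb1 + DMSO and 1.56, 1.63 and 1.27 in TGFb1 + CHIR. Each agent raised it and the combination lay under all other libraries (-4.72 ± 0.19, adjusted p = 6.21e-27). Flrt2, a membrane protein of cell adhesion, and Enpp3, an ectonucleotidase, also rose with each agent (-2.62 ± 0.071 and -2.57 ± 0.11). In the combination Flrt2 stood under DMSO, at 55.4 to 59.3 against 78.1 to 89.7 CPM, and Enpp3 just above it, at 26.4 to 27.9 against 20.3 to 23.5 CPM.

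The 624 genes with an interaction and no called single-agent effect included interferon-related genes in the lower direction. Parp14, an ADP-ribosyltransferase, was at 9.63, 11.1 and 14.8 CPM in DMSO, 15.9, 17.6 and 18.8 in CHIR, 15.9, 11.2 and 17.4 in TGFb1 + DMSO and 1.74, 1.78 and 0.866 in the combination (-3.87 ± 0.43). TGFb1 + DMSO overlapped both DMSO and CHIR, and the combination lay under all of them. It also lay under all other libraries for Gbp3 and Gbp7, relatives of Gbp2 (-3.11 ± 0.61 and -2.60 ± 0.32). In the higher direction Rab20, a small GTPase of membrane traffic, was at 15 to 16.9 CPM in the combination and between 5.51 and 7.72 CPM in the other 9 libraries (1.29 ± 0.20). Snhg8, a noncoding host gene of a small nucleolar RNA, and Prr5l, which binds mTOR complex subunits, had 1.31 ± 0.17 and 1.52 ± 0.29. Over all genes tested the 3 libraries of the combination lay above the other 9 for 1946 genes (12%) and under them for 1743 (10.8%).

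Secreted signals moved in both directions. Il6, an inflammatory cytokine, was at 11, 9.84 and 9.08 CPM in DMSO, 0.112, 0.228 and 0.146 in CHIR, 32, 34.6 and 28.8 in TGFb1 + DMSO and 6.23, 7.26 and 5.75 in TGFb1 + CHIR. CHIR lowered it in both settings, less so with TGFb1 (3.58 ± 0.34). Lif, a cytokine of the same family, fell with CHIR alone and rose when CHIR was added to TGFb1, from 50.6 to 58.5 to 116 to 121 CPM (3.30 ± 0.13). Pdgfb, a growth factor for mesenchymal cells, rose with CHIR alone from 0.272 to 0.705 to 1.27 to 2.29 CPM and fell when CHIR was added to TGFb1, from 22.5 to 27.2 to 2.67 to 3.87 (-4.91 ± 0.32). Of 35 cytokine and growth factor genes 13 interactions were higher, 11 lower and 11 not called. Cx3cl1, a membrane-bound chemokine, was at 141 to 148 CPM in DMSO, 229.6 to 260.3 in CHIR, 47.5 to 55.2 in TGFb1 + DMSO and 5.04 to 6.82 in the combination (-3.88 ± 0.10), and of 15 chemokine genes 4 were higher and 6 lower.

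The other lists are given by their counts. Higher and lower interactions numbered 7 and 1 among 15 acute phase and complement genes, 6 and 8 among 23 NF-kB genes and 5 and 5 among 15 genes of the IGF system. They numbered 4 and 6 among 14 ID and BMP genes, 10 and 6 among 19 fibrotic fibroblast markers, 5 and 0 among 14 alveolar fibroblast markers and 1 and 8 among 16 osteogenic genes. Among 20 NRF2 and antioxidant genes 3 were higher and 11 lower, with Gclc, a subunit of the enzyme that starts glutathione synthesis, raised by CHIR alone (1.08) and lowered by CHIR with TGFb1 (-0.24). Among 26 glycolysis and hypoxia genes 11 were higher and 5 lower, among 25 sterol synthesis genes 5 and 5, among 20 fatty acid genes 7 and 11, among 19 p53 genes 5 and 9, among 15 D cyclins and CDK inhibitors 6 and 4, and among 11 Notch genes 4 and 3. Of 10 mitochondrially encoded genes 6 were lower and none higher, and of 5 replication-dependent histone genes 3 were higher. No list was tested as a set; each count stands beside the 21% higher and 20.3% lower of all genes tested.

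**Figure D4:**
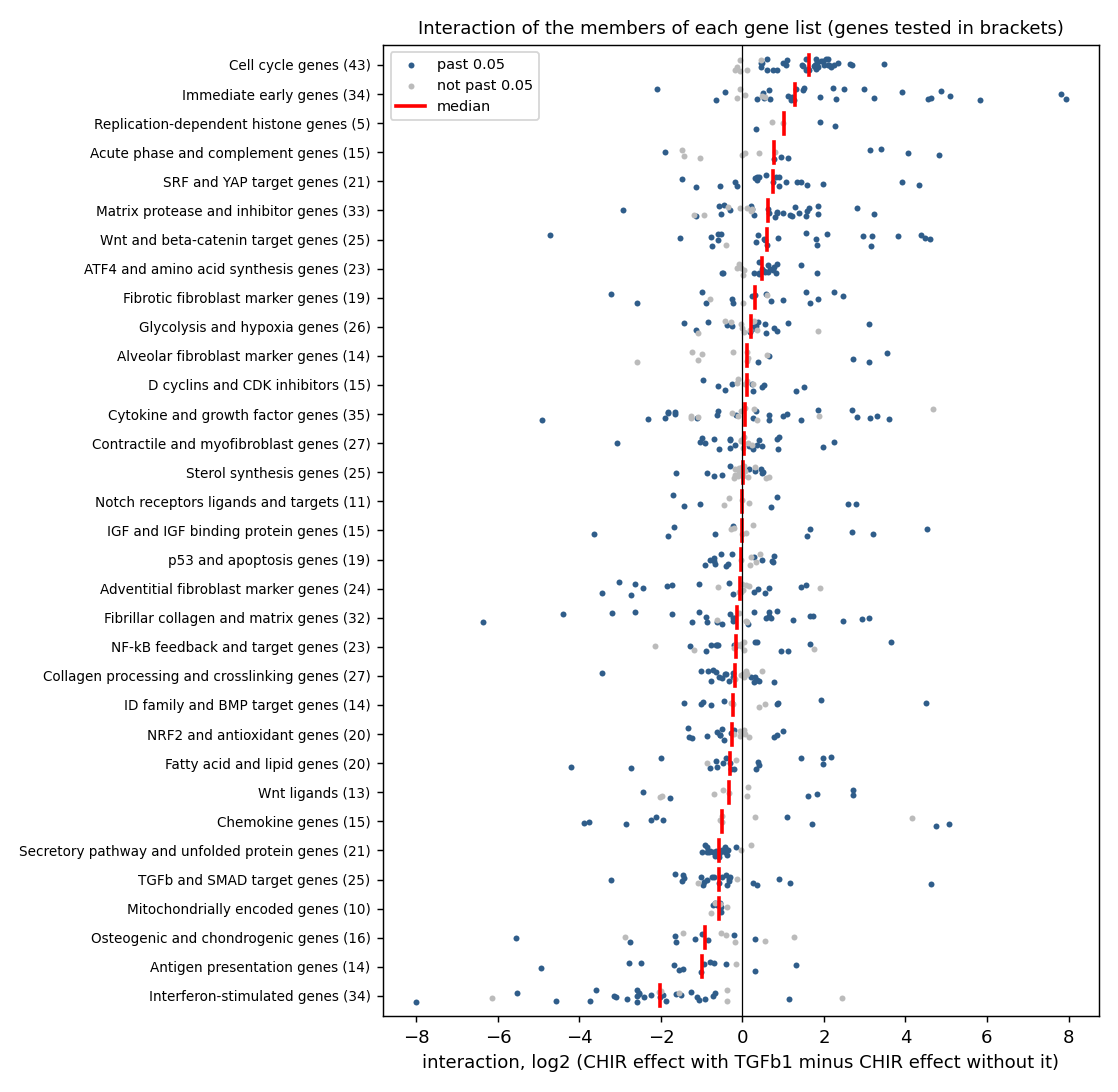
Each row is a gene list with the number of genes tested in brackets, each point the log2 interaction of a gene (blue where called), and the red bar the median of the list. Cell cycle and immediate early genes lie furthest to the right (medians 1.64 and 1.29) and interferon-stimulated genes furthest to the left (-2.03), while the contractile list is centred at 0.047.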

How the data were processed

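Raw counts per gene in 21 total RNA libraries were deposited by the authors; the kit was stranded, per the labels' protocols. Not given in the sources used here are the aligner, the counter and the strand setting. The deposited table holds 52636 mouse gene IDs, of which 52403 are in GENCODE M21 (GRCm38), the source of symbols and positions; promoters are RefSeq windows, found for 10822 genes tested. Groups came from the treatment labels. Genes passing filterByExpr were fitted with edgeR 4.0.16 in R 4.3.3 (TMM factors, 1 coefficient per group over 21 libraries, robust quasi-likelihood F-tests, Benjamini-Hochberg adjustment over 16197 genes, threshold 0.05); the common biological coefficient of variation was 0.0581. Synergy and antagonism required both single agents to be called with the same sign. On simulated data over 15934 genes, the interaction fit recovered 52 of 80 genes changed 1.5-fold and 55 of 60 changed 2-fold. It recovered 60 of 60 changed 4-fold, with 7 others called. The simulation gave every gene the common coefficient of variation and changed only genes above a count minimum. It does not measure recovery or false calls for genes with a larger spread. Alternatives were DESeq2 1.42.0, voom and CPM in limma 3.58.1, RLE factors, 2 filters, mitochondrial and rRNA genes left out, 12 libraries, the other TGFb1 control, a 1.5-fold test and each library left out.

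The rule for naming took called genes averaging 2 log2 CPM or more, with counts in every group and without a clone or RIKEN name. From these it named the 12 highest and 12 lowest interactions and 6 per class and direction. It also named the 8 CHIR and 6 TGFb1 reversals per direction with the largest smaller effect. List members and genes fixed by name were added without this floor or the need of a call. Only some named genes appear in the text. The members, lists and rule were chosen with earlier results of these data known. Set tests and pathway databases were not used, and counts of reads shared by near-identical genes are uncertain.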

Additional observations from a re-analysis of the deposited data

Results flagged for a closer look

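Results are given here because the effect of CHIR differed between the settings with and without TGFb1 by the test of the difference itself, edgeR's quasi-likelihood test of the interaction. This held for 6681 genes, of which 1514 reversed the sign of the CHIR effect. The 16 reversals named by rule had these log2 interactions, positive where the CHIR effect was higher with TGFb1. From a fall to a rise they were Fhod3 4.34, Syt13 3.92, Grb14 3.83, Mgll 3.05, Tnfrsf11b 2.97, Chrdl1 2.93, Dpep1 2.66 and Ankrd29 2.45. From a rise to a fall they were Col15a1 -6.36, Ces1g -3.82, Olr1 -3.70, Tnn -3.54, Col8a2 -3.20, Lama2 -3.02, Rgs4 -3.02 and Fbxo32 -2.94. Groups of 3 libraries were too small to examine single libraries as outliers.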

How the results depend on the processing

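No paired analysis was possible because the labels give the libraries no replicate numbers shared between groups. The 6681 interactions became 6769 with DESeq2, 6636 with limma voom, 6685 with RLE factors, 6382 with no filter, 6629 with the stricter filter, 6683 without mitochondrial and rRNA genes, 6736 with 12 libraries in the fit and 6518 with TGFb1 in place of TGFb1 + DMSO, where 3 calls had the opposite sign. A test for more than a 1.5-fold interaction, stricter by construction, called 1848 genes, 997 higher and 851 lower. Leaving out each library in turn gave 6148 to 6481 interactions (3116 to 3302 higher, 3032 to 3243 lower), 1781 to 1907 of at least 2-fold, 1334 to 1432 reversals of the CHIR effect, 759 to 808 of the TGFb1 effect, 137 to 161 synergies and 1548 to 1717 antagonisms. Of the genes named, Acta2 changed sign with the other TGFb1 control (-0.381); the cause was not tested. On the CPM scale, where the expectation is a sum by construction, the interaction had the opposite sign for Acta2 (-304.4 CPM), Cxcl12 (501.7), Efemp1 (205.9), Il6 (-15.59), Lef1 (13.91), Ly6a (22.33), Ly6c1 (22.59), Mki67 (-8.88), Plk1 (-0.379), Postn (171.0), Serpina3g (1.225) and Smoc2 (19.49). For Mki67, Plk1, Postn and Serpina3g the CPM interaction was not called in limma (adjusted p from 0.655 to 0.939), so their sign on that scale is not settled. The other TGFb1 control also moved list counts by more than 1.5-fold: higher contractile genes numbered 6, higher collagen processing genes 3, higher glycolysis genes 7 and lower ones 8, lower sterol genes 11, lower cytokine genes 17, lower Wnt ligands 4, higher D cyclins and CDK inhibitors 3, higher NRF2 genes 5, lower cell cycle genes 1 and lower mitochondrial genes 1. Lower mitochondrial genes also numbered 3 without replicate 2 of CHIR or replicate 1 of TGFb1 + DMSO, and higher histone genes 1 without replicate 3 of TGFb1 + CHIR. Lower ATF4 genes numbered 1 in place of 2 without any single library other than replicate 3 of DMSO, replicate 1 of CHIR and replicate 1 of TGFb1 + DMSO. Lower acute phase genes numbered 2 with no filter, 2 without replicate 1 of DMSO and 3 without replicate 2 of TGFb1 + DMSO, and lower alveolar markers 1 without replicate 2 of TGFb1 + DMSO or replicate 3 of TGFb1 + CHIR. Lower SRF and YAP genes numbered 3 without replicate 3 of TGFb1 + CHIR. Lef1 was called only with the other TGFb1 control (-0.62) and, with the opposite sign, on the CPM scale. With 3 libraries per group, interactions of low-count genes have wide errors, and precision below a 1.5-fold interaction is limited.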

Other observations

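C3 and Vcam1, both lowered by TGFb1, fell further when CHIR was added. C3, the central complement component and the only lower interaction among the 15 acute phase and complement genes, of which 7 were higher, was at 3619 to 4073 CPM in DMSO, 4034 to 4185 in CHIR, 72.5 to 79.2 in TGFb1 + DMSO and 20 to 23.3 in TGFb1 + CHIR (-1.91 ± 0.079). Vcam1, an adhesion molecule for leukocytes, was at 434 to 466, 348 to 368, 164 to 179.9 and 52.8 to 59.3 CPM in the same groups, an interaction of -1.28 ± 0.063 (log2 ± SE, edgeR).

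Npnt and Sfrp2, also lowered by TGFb1, rose when CHIR was added. Npnt, a matrix ligand of integrins known from alveolar fibroblasts, went from 1.19 to 1.44 CPM in TGFb1 + DMSO to 14.5 to 16.3 in the combination (3.54 ± 0.27), above the 4.26 to 6.49 of DMSO. Sfrp2, a secreted modulator of Wnt signalling, went from 0.409 to 0.622 to 9.23 to 10.8 CPM and stayed under the 115 to 119.6 of DMSO (4.47 ± 0.25). Hmox1, the haem-degrading enzyme, rose with CHIR in both settings, more with TGFb1 (0.99 ± 0.067). Igf1, a growth factor, rose with CHIR alone (1.77), and its CHIR effect with TGFb1 was -0.05 and not called (-1.82 ± 0.14 for the difference).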
